A study of Mus musculus with 6 samples.

Results

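The genes described here encode 6 cell-surface receptors of hepatocytes, Lepr (leptin), Lifr (leukaemia inhibitory factor, LIF), Prlr (prolactin), Egfr (epidermal growth factor, EGF), Il6ra (interleukin-6) and Il6st (the chain gp130), with the transcription factor gene Stat3 and its feedback inhibitor gene Socs3. They were picked by symbol, 8 of the 49212 genes counted, with their difference between the groups already known, so that difference is described below and not tested. Liver RNA was sequenced from 3 libraries labelled as DHT pellet treated PCOS mice and 3 labelled placebo. All 6 libraries are from mice on a C57BL/6J background at 15 weeks of age. DHT is dihydrotestosterone, an androgen that aromatase cannot turn into an oestrogen, and PCOS is polycystic ovary syndrome. The study concerns androgen, the hepatic clock and fatty liver in this model. Sex, collection time and feeding state are not in the labels, nor is it stated whether each library came from its own animal, so any p-value measures the spread between these samples, which may be technical.

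Leptin, LIF and interleukin-6 signal through receptors whose cytoplasmic tails bind JAK kinases, which phosphorylate STAT3, and STAT3 then enters the nucleus and induces its targets, among them acute phase genes and Socs3. The SOCS3 protein binds gp130 and the leptin receptor and shuts the signal off. The prolactin receptor belongs to the same class I cytokine receptor family but works mainly through STAT5, and the EGF receptor is a tyrosine kinase that drives the MAPK cascade and can also activate STAT3. In liver these receptors take part in the acute phase response, in regeneration and in the response to feeding and to pituitary hormones, and prolactin receptor mRNA is known to be more abundant in female than in male rodent liver.

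Total counts per library lay between 41336844 and 60209462. Transcripts of Ddx3y, on the Y chromosome, stood at 68.5 to 73.2 CPM (counts per 1000000 of the TMM-scaled library size) in the DHT libraries and at 0.0591 to 0.103 CPM in the placebo libraries, while Xist stood at 0.107 to 0.515 CPM in DHT and at 25.2 to 255 CPM in placebo libraries. The labelled treatment and this sex-linked signal cannot be told apart in any comparison made here. Placebo 3 stood apart from placebo 1 and 2 in several of the genes below, and values without it are given there. Of 9 listed hepatocyte markers, Tf was not found in the tables by that symbol, the other 8 were detected in these livers, and their summed level was 73549 to 89506 CPM in DHT and 95536 to 134085 CPM in placebo libraries. Alb made up most of that sum, at a mean of 60381 CPM in DHT and 84695 CPM in placebo. Of the 8, Alb, Cps1 and Serpina1a were lower in every DHT library, beside 10.9% of all 15126 genes tested, and the others overlapped between the groups. The log2 fold change was negative in 6 of the 8 and positive in 2, Apob and Hnf4a. The part that this difference in the summed markers plays in the results below was not tested. In whole liver RNA, fewer cells of a type and less RNA per cell cannot be told apart.

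Across the 8 genes, the 4 receptors Lepr, Lifr, Prlr and Egfr had lower mRNA in every DHT library than in any placebo library. Il6ra, Il6st, Stat3 and Socs3 overlapped between the groups. Among all 15126 genes tested, 10.9% were lower in DHT with no overlap and 23.6% did not overlap in either direction. By edgeR's quasi-likelihood test across all genes, 1.65% of genes were called at an adjusted p under 0.05, 0.952% higher and 0.701% lower in DHT. These were 144 genes higher and 106 lower, and with libraries scaled by total size alone they were 207 higher and 89 lower. Lepr and Lifr, 2 of the 8, were among those called lower. With the replicate number as a block, 10.7% of genes were called, 5.44% higher and 5.28% lower, and 4 of the 8 were among the lower ones, Lepr, Lifr, Prlr and Egfr. Nothing is read from these counts, because the genes were chosen on the same contrast. The block assumes that libraries of the same number belong together, which no label states. DHT 1 correlated more with placebo 2 (0.438) than with placebo 1 (0.235). DHT 2 correlated more with placebo 1 (0.278) than with placebo 2 (0.137). With so few libraries the block also leaves little to estimate a gene's own spread, so its p-values below are an alternative setting and not added support. The median log2 fold change (DHT minus placebo) was −1.48 over the 8 genes and −0.02 over all genes tested. Without placebo 3, calls over all genes rose from 250 to 862, 425 higher and 437 lower. Leaving out any other single library gave 84 to 165 calls. Calls given below without placebo 3 are to be read beside that rise.

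**Figure D1:**
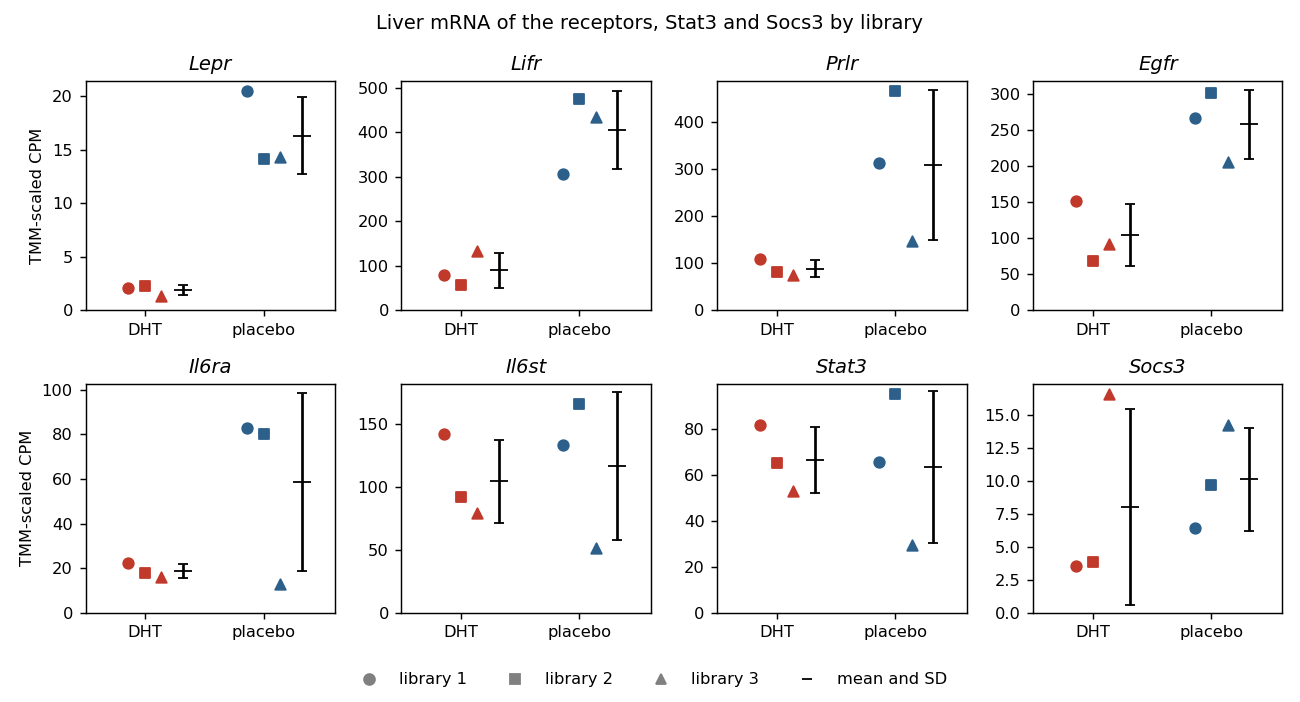
TMM-scaled CPM of each gene (vertical axes from 0, a separate scale per gene) in the 3 DHT libraries (red) and the 3 placebo libraries (blue), with the marker shape giving the library number and the black bar the mean and SD. Lepr, Lifr, Prlr and Egfr do not overlap between the groups, and placebo 3 lies far below placebo 1 and 2 in Il6ra, Il6st and Stat3.

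Lepr, which encodes the leptin receptor (GRCm38 chromosome 4, 101717404 to 101815352, plus strand), showed the widest gap. Its level was 2.11, 2.22 and 1.30 CPM in DHT 1, 2 and 3, against 20.5, 14.2 and 14.3 CPM in placebo 1, 2 and 3. All 3 DHT libraries sat close together, far under the lowest placebo library. The means were 1.87 ± 0.50 CPM in DHT and 16.3 ± 3.61 CPM in placebo (SD, n = 3 each), an 8.68-fold lower level with a log2 fold change of −3.12 ± 0.33 (SE). These values rest on 130, 124 and 58 counts in DHT 1, 2 and 3 and on 1191, 720 and 695 counts in placebo 1, 2 and 3. Leaving out any single library kept the log2 fold change between −3.25 and −2.91. The counts pool the 7 GENCODE transcripts of the gene, so the signalling form and the short and soluble forms cannot be told apart. The neighbouring gene Leprot, whose product limits the receptor's presence at the cell surface, had 17.3 ± 0.20 CPM in DHT and 18.5 ± 2.58 CPM in placebo, with a log2 fold change of −0.10 ± 0.23 (edgeR adjusted p = 0.862).

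The start region of Lepr is shown because this gene had the largest difference among the 8. It covers 250 bases before to 50 bases after a RefSeq start on GRCm38.p6, plus strand, at chr4:101717157-101717456.
Lepr promoter: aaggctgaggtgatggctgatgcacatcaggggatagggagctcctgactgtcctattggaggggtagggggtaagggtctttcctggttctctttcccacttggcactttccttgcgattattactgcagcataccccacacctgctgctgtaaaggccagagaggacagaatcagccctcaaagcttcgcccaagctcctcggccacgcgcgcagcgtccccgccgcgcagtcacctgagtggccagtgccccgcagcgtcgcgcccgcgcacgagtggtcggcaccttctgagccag
RefSeq lists 12 such windows for the 8 genes, all 8 of which were matched, with a GC content from 35.3% to 81.3%. The STAT-type motif TTCNNNGAA, which reads the same on both strands, was found in 2 of the 12 windows, 1 of Prlr and the 1 of Socs3, and in 8.30% of 32851 windows of the same length over all genes. Its stricter form TTCCNGGAA, contained in the first, was found in 0 of the 12 and in 1.15% of all windows. The E-box CACGTG, to which clock factors bind, was found in 1 of the 12, that of Il6ra, and in 7.15% of all windows. A match of letters is not a binding site, and these shares describe the windows only.

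Lifr encodes the LIF receptor, which pairs with gp130 (chromosome 15, 7129559 to 7197489, plus strand). It had 79.3, 57.1 and 133 CPM in DHT 1, 2 and 3, against 305, 475 and 435 CPM in placebo 1, 2 and 3. DHT 3 was the highest of its group and still lay well under the lowest placebo library, placebo 1. Mean levels were 89.9 ± 39.3 CPM in DHT and 405 ± 88.4 CPM in placebo (SD, n = 3 each), 4.50-fold lower, with a log2 fold change of −2.17 ± 0.38. It ranged from −2.56, without DHT 3, to −1.92, without DHT 2. GENCODE lists 8 transcripts of Lifr, at gene coordinates that differ from those counted here, and the counts cannot tell receptor forms apart.

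Prlr, the prolactin receptor gene (chromosome 15, 10177238 to 10349180, plus strand), had 109, 81.7 and 74.2 CPM in DHT 1, 2 and 3. In placebo 1, 2 and 3 it had 312, 465 and 147 CPM. The placebo libraries were spread widely, and placebo 3 came closest to the DHT libraries. The log2 fold change was −1.80 ± 0.43, a 3.49-fold lower level, between means of 88.2 ± 18.3 CPM in DHT and 308 ± 159 CPM in placebo (SD, n = 3 each). It was −1.39 without placebo 2, the library with the highest level, and −2.14 without placebo 3. Long and short receptor forms are pooled in these counts, over 12 GENCODE transcripts.

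Prlr has 3 RefSeq start windows, and the one shown holds the TTCNNNGAA motif in capitals, beginning 110 bases before the start (GRCm38.p6, plus strand, chr15:10223656-10223955). This window lies inside the counted gene, which begins at 10177238.
Prlr promoter: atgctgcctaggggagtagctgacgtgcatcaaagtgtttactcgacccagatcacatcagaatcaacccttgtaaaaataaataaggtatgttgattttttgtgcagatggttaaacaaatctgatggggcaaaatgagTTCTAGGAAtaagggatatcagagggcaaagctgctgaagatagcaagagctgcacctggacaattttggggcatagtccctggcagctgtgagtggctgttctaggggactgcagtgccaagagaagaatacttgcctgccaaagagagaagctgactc

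Egfr, the EGF receptor gene (chromosome 11, 16752203 to 16918158, plus strand), had the smallest gap of the 4. It stood at 152, 68.6 and 91.6 CPM in DHT 1, 2 and 3 and at 266, 301 and 206 CPM in placebo 1, 2 and 3. DHT 1 was the nearest to placebo, and the groups did not overlap. Means of 104 ± 43.1 CPM in DHT and 258 ± 48.0 CPM in placebo (SD, n = 3 each) gave a 2.48-fold lower level and a log2 fold change of −1.31 ± 0.35. Without DHT 1 the log2 fold change was −1.68, and without DHT 2 it was −1.08.

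Il6ra encodes the ligand-binding chain of the interleukin-6 receptor (chromosome 3, 89864059 to 89913196, minus strand). Its level was 22.4, 18.0 and 15.9 CPM in DHT 1, 2 and 3, against 82.9, 80.3 and 12.7 CPM in placebo 1, 2 and 3. Placebo 1 and 2 were several times higher than all DHT libraries, while placebo 3 was the lowest of the 6, at 6.42-fold under the mean of placebo 1 and 2. The log2 fold change was therefore imprecise, −1.64 ± 0.61, and without placebo 3 it was −2.12. The start window of Il6ra is shown with its CACGTG in capitals, beginning 24 bases before the start (GRCm38.p6, minus strand, chr3:89913147-89913446).
Il6ra promoter: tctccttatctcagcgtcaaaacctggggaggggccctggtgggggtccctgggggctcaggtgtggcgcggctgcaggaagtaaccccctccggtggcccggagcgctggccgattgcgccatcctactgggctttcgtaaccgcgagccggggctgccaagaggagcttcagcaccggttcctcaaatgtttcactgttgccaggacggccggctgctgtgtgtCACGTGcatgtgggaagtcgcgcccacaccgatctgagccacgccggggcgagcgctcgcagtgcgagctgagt

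Il6st encodes gp130, the signalling chain that the receptors of interleukin-6, LIF and related cytokines share (chromosome 13, 112464070 to 112510086, plus strand). It had 142, 91.8 and 79.3 CPM in DHT 1, 2 and 3 and 133, 165 and 51.1 CPM in placebo 1, 2 and 3. The DHT values fell within the placebo range. Its log2 fold change of −0.16 ± 0.44 changed sign with the setting, from −0.52 without placebo 3 to 0.17 without placebo 2, and was 0.02 with library size alone. The level of Lifr relative to that of Il6st, both per exon length within a library, was 0.601, 0.668 and 1.81 in DHT 1, 2 and 3 and 2.46, 3.08 and 9.13 in placebo 1, 2 and 3. In this ratio the groups did not overlap, although each group's library 3 was its highest. Lifr, chosen on this contrast, did not overlap by itself either, so the split of the ratio is not added support. The ratio of Il6ra to Il6st was 0.203 to 0.258 in DHT and 0.319 to 0.799 in placebo libraries, and here placebo 3 was no longer below the DHT libraries. Il6st too was lowest in placebo 3, which raises this ratio there, so nothing is read from the split.

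Stat3, the transcription factor gene downstream of these receptors (chromosome 11, 100885098 to 100939540, minus strand), had 81.8, 65.3 and 53.0 CPM in DHT 1, 2 and 3. In placebo 1, 2 and 3 it had 65.9, 95.4 and 29.5 CPM. Placebo held both the highest and the lowest library, so the groups overlapped fully. The log2 fold change was 0.07 ± 0.41, with values from −0.28 without placebo 3 to 0.47 without placebo 2. An overlap of 72 bases with Stat5a on the opposite strand covers 0.756% of its exon length.

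Socs3, the feedback inhibitor (chromosome 11, 117966079 to 117970047, minus strand), varied more within the groups than between them. Its level was 3.57, 3.86 and 16.6 CPM in DHT 1, 2 and 3 and 6.42, 9.71 and 14.2 CPM in placebo 1, 2 and 3. DHT 3 was the highest of all 6 libraries, 4.46-fold above the mean of DHT 1 and 2, which were the lowest. The log2 fold change was −0.34 ± 0.61, and it was −1.44 without DHT 3 and 0.02 without DHT 1. Socs3 relative to Stat3, per exon length within a library, was 0.144, 0.195 and 1.03 in DHT 1, 2 and 3 and 0.321, 0.336 and 1.59 in placebo 1, 2 and 3. In both groups library 3 had the highest ratio, and the groups overlapped. The start window of Socs3, the gene that STAT3 is known to induce, is shown with its TTCNNNGAA motif in capitals. The motif begins 154 bases before the RefSeq start (GRCm38.p6, minus strand, chr11:117969317-117969616). That whole window lies inside the counted gene, which on this strand begins at 117970047.
Socs3 promoter: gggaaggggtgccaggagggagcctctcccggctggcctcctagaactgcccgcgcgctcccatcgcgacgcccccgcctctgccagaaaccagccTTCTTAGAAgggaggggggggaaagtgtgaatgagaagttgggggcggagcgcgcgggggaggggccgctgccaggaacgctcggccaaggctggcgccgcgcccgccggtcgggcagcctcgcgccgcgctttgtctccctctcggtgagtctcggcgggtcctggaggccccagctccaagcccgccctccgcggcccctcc

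**Figure D2:**
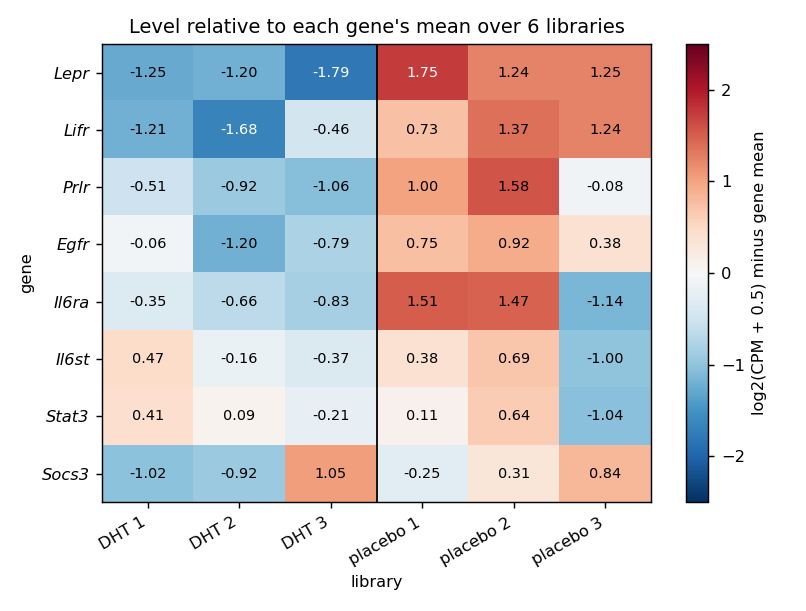
Level of each gene (rows) in each library (columns, DHT left of placebo) as log2(CPM + 0.5) minus the gene's mean over the 6 libraries, red for above and blue for below. The upper 4 rows split by group, and placebo 3 is at −1.14 in Il6ra, −0.998 in Il6st and −1.04 in Stat3, the lowest value of each row.

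The 8 genes fell into different patterns over the libraries. Placebo 2 had the highest level of 5 genes, Lifr, Prlr, Egfr, Il6st and Stat3, and placebo 1 that of Lepr and Il6ra. Placebo 3 had the lowest level of Il6ra, Il6st and Stat3, where it stood 6.42-fold, 2.92-fold and 2.73-fold under the mean of placebo 1 and 2, while its Lifr was 1.11 times theirs. The within-group SD of log2(CPM + 0.5) was 0.312 in Lepr, 0.454 in Egfr, 0.495 in Lifr, 0.628 in Prlr, 0.644 in Stat3, 0.704 in Il6st, 0.911 in Socs3 and 1.09 in Il6ra. Its median over 8925 genes with a mean of at least 5 CPM was 0.368, and Lepr alone among the 8 was below that median. The added 0.5 shrinks the spread of low levels, such as those of Lepr in DHT (1.30 to 2.22 CPM). Nothing is therefore read from the place of Lepr under the median. The share of counts from mitochondrial genes was 6.44% to 8.47% in DHT and 3.23% to 6.83% in placebo libraries, with placebo 3 the lowest, and its part in these values was not tested.

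Per kilobase of exon, the order of levels differed between the groups. In DHT libraries, Il6st (9.40 ± 2.98 CPM per kb), Egfr (9.19 ± 3.80), Lifr (8.71 ± 3.80), Stat3 (7.002 ± 1.51) and Prlr (5.75 ± 1.19) followed each other with ranges that overlapped from each gene to the next. Socs3 (2.77 ± 2.57) and Il6ra (2.17 ± 0.38) came lower, also with overlapping ranges, and Lepr (0.266 ± 0.071) stood apart below them. In placebo libraries Lifr was the highest at 39.2 ± 8.56 CPM per kb, with its range apart from that of Egfr at 22.7 ± 4.24. Prlr (20.1 ± 10.4), Il6st (10.5 ± 5.31), Il6ra (6.78 ± 4.60), Stat3 (6.68 ± 3.46), Socs3 (3.50 ± 1.36) and Lepr (2.32 ± 0.51) followed, each overlapping its neighbour in the order. Lifr was the highest of the 8 in placebo, and in DHT its range over the libraries overlapped those of Il6st, Egfr, Stat3, Prlr and Socs3. Exon lengths count every annotated exon once, so a level per kilobase is understated where long exons are not used in liver.

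**Figure D3:**
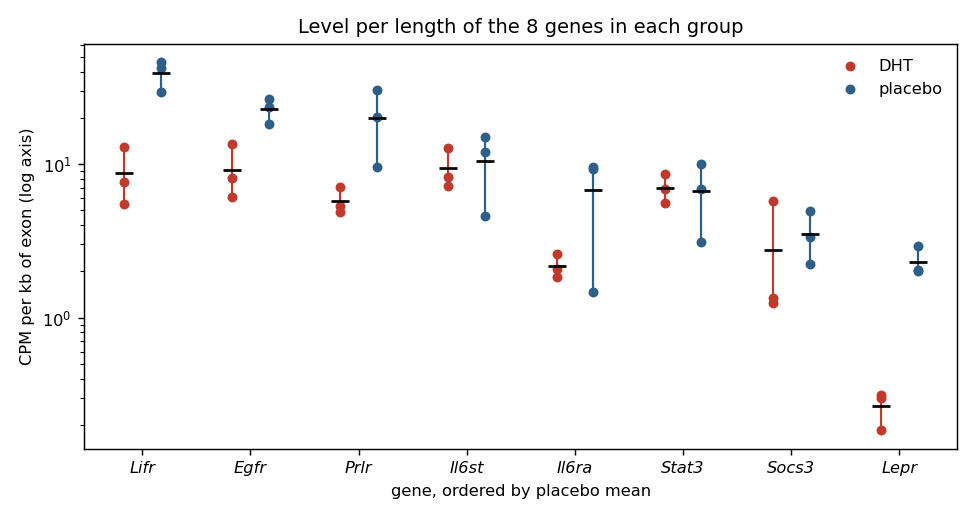
CPM per kilobase of exon (log axis) of each gene in DHT libraries (red) and placebo libraries (blue), with each dot a library, the line its group's range and the black bar the mean. Genes are ordered by their placebo mean, and Lepr in DHT, at 0.184 to 0.314 CPM per kb, lies below every other group of values.

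Among 8683 other genes with a mean of at least 5 CPM, without those named only by a Gm number or a Rik clone, the closest profiles over the 6 libraries were found by the root mean square difference of mean-centred log2(CPM + 0.5). For Lepr these were Atp6v0d2, a subunit of the vacuolar proton pump (0.35), and Ciart, a circadian repressor gene (0.37). Atp6v0d2 had 2.74, 2.70 and 1.68 CPM in DHT 1, 2 and 3, against 26.4, 30.2 and 13.3 CPM in placebo 1, 2 and 3. Lifr was closest to Ces2a, a carboxylesterase gene (0.23), and Cyp2c70, a bile acid hydroxylase gene (0.25). The profile of Prlr was closest to those of Serpina6, which encodes corticosteroid-binding globulin (0.18), and Papss2, which makes the sulfate donor of sulfotransferases (0.18). Egfr was closest to F7, a coagulation factor gene (0.17), and to Cps1, the first enzyme gene of the urea cycle (0.23). With 6 libraries in 2 groups, such likeness describes the shared split between groups and little else.

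Of 17 tested cytokine receptor genes related to gp130, 0 were called higher and 0 lower by edgeR, 2 had an unadjusted p under 0.05, and DESeq2 called 1, Il13ra1. For this and every later list, the background is all 15126 genes tested. Of those, 2409 had an unadjusted p under 0.05 and DESeq2 called 1062. The median log2 fold change of the list was −0.15. Without overlap between the groups, 2 were lower in DHT, Il11ra1 and Il13ra1, and 0 higher, beside 10.9% and 12.7% of all genes. In CPM without TMM scaling Il11ra1 overlapped and Il13ra1 did not. Il13ra1, a chain of the interleukin-13 receptor, had 25.3 ± 5.42 CPM in DHT and 69.5 ± 29.0 CPM in placebo, a log2 fold change of −1.46 ± 0.34 (edgeR adjusted p = 0.0916, with the replicate block 0.000161). Il11ra1, the interleukin-11 receptor gene that signals through gp130, had 21.3 ± 4.98 against 40.8 ± 14.1 CPM in the same order (adjusted p = 0.217, with the block 0.0192). Cntfr, the receptor gene of ciliary neurotrophic factor, had 1.64 ± 0.45 CPM in DHT and 3.25 ± 1.83 CPM in placebo (adjusted p = 0.379), and without placebo 3 it was called lower (adjusted p = 0.0368), as was Il13ra1 (0.0272). Osmr, the partner of gp130 for oncostatin M, had 1.79 ± 0.40 CPM in DHT and 2.66 ± 1.28 CPM in placebo (adjusted p = 0.518). Ghr, the growth hormone receptor gene, had 601 ± 25.6 CPM in DHT and 618 ± 120 CPM in placebo (adjusted p = 0.960).

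Among 14 genes of the ERBB receptors, the related receptor Met, and their adaptors and negative regulators, edgeR called 0 in either direction, 3 had an unadjusted p under 0.05 and DESeq2 called 0. The list median was 0.03. In DHT 2 were lower without overlap, Errfi1 and Gab1, and 3 higher, Lrig1, Lrig2 and Sos1, beside 10.9% and 12.7% of all genes. Erbb3, a partner of EGFR that needs another kinase to signal, had 84.3 ± 14.7 CPM in DHT and 85.0 ± 55.9 CPM in placebo (adjusted p = 0.992). Gab1, a docking protein gene, had 8.58 ± 1.46 against 16.6 ± 6.46 CPM in the same order (adjusted p = 0.216). It was called lower with the replicate block (adjusted p = 0.0345) and without placebo 3 (0.0387), and Sos1, which activates RAS, was called higher with the block (0.0422). Errfi1, which encodes an inhibitor that binds the EGFR kinase domain, had 395 ± 102 CPM in DHT and 678 ± 159 CPM in placebo, and the groups did not overlap (adjusted p = 0.278). Lrig2, of a family of ERBB regulators, had 5.42 ± 0.64 against 3.59 ± 0.20 CPM in the same order (adjusted p = 0.309).

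Transcripts of most of the listed ligands were scarce in these livers, with Tgfa the main exception. Lep, Prl and Il6 had 0 counts in all 6 libraries, which allows up to 0.00936 CPM over the pooled libraries for counting error alone. Lif had 4, 5 and 1 counts in DHT 1, 2 and 3 and 3, 1 and 0 in placebo 1, 2 and 3. Of 17 ligand genes, 6 passed the low-count filter, edgeR called 0 of them higher and 0 lower, 2 had an unadjusted p under 0.05 and DESeq2 called 1, Hbegf. In DHT 1 of the 6 was lower without overlap, Hbegf, and 2 were higher, Ctf1 and Btc, beside 10.9% and 12.7% of all genes. Tgfa, an EGFR ligand, had the highest level of these 6 in CPM, 20.5 ± 5.48 in DHT and 14.1 ± 5.86 in placebo (adjusted p = 0.518). Hbegf, another EGFR ligand, had 0.519, 0.411 and 0.582 CPM in DHT 1, 2 and 3, against 2.15, 1.40 and 1.13 CPM in placebo 1, 2 and 3. Its log2 fold change was −1.63 ± 0.40 (adjusted p = 0.0967), and it was called with the replicate block (0.0106) and without placebo 3 (0.0264). Btc, betacellulin, had 2.64 ± 0.80 CPM in DHT and 1.37 ± 0.49 CPM in placebo (adjusted p = 0.290), and Clcf1, a ligand of the CNTF receptor, had 0.637 ± 0.30 against 0.383 ± 0.10 CPM in the same order (adjusted p = 0.480).

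Of the 10 JAK and STAT genes besides Stat3, edgeR called 0 higher and 0 lower, 2 had an unadjusted p under 0.05 and DESeq2 called 0, with a list median of 0.27. In DHT 1 was lower without overlap, Stat4, and 3 were higher, Jak2, Stat2 and Stat5a, beside 10.9% and 12.7% of all genes. Stat2 of the interferon pathway had 49.8 ± 2.91 CPM in DHT and 32.4 ± 2.83 CPM in placebo (log2 fold change 0.62 ± 0.22, adjusted p = 0.222). Stat5a, which acts below the prolactin receptor, had 15.0 ± 1.29 against 8.91 ± 3.45 CPM in the same order (adjusted p = 0.296), and Jak2, the kinase bound to the prolactin and leptin receptors, had 16.3 ± 2.74 against 12.4 ± 1.79 CPM (adjusted p = 0.472).

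Among 17 tested SOCS, PIAS, phosphatase and SH2B genes, edgeR called 0 in either direction, 1 had an unadjusted p under 0.05 and DESeq2 called that 1, Socs2. The list median was 0.00407. In DHT 2 were lower without overlap, Socs2 and Pias2, and 3 higher, Socs7, Pias3 and Ptpn6, beside 10.9% and 12.7% of all genes. Socs2, the feedback inhibitor of growth hormone and prolactin signalling, had 9.80, 5.38 and 15.8 CPM in DHT 1, 2 and 3, against 45.2, 21.7 and 41.1 CPM in placebo 1, 2 and 3. Socs2 did not overlap between the groups, at a log2 difference of −1.80 ± 0.45 (adjusted p = 0.104, with the replicate block 1.25e-06). Socs1 (−0.72 ± 0.44, adjusted p = 0.452) and the STAT inhibitor gene Pias3 (0.50 ± 0.28, adjusted p = 0.414) did not pass either.

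**Figure D4:**
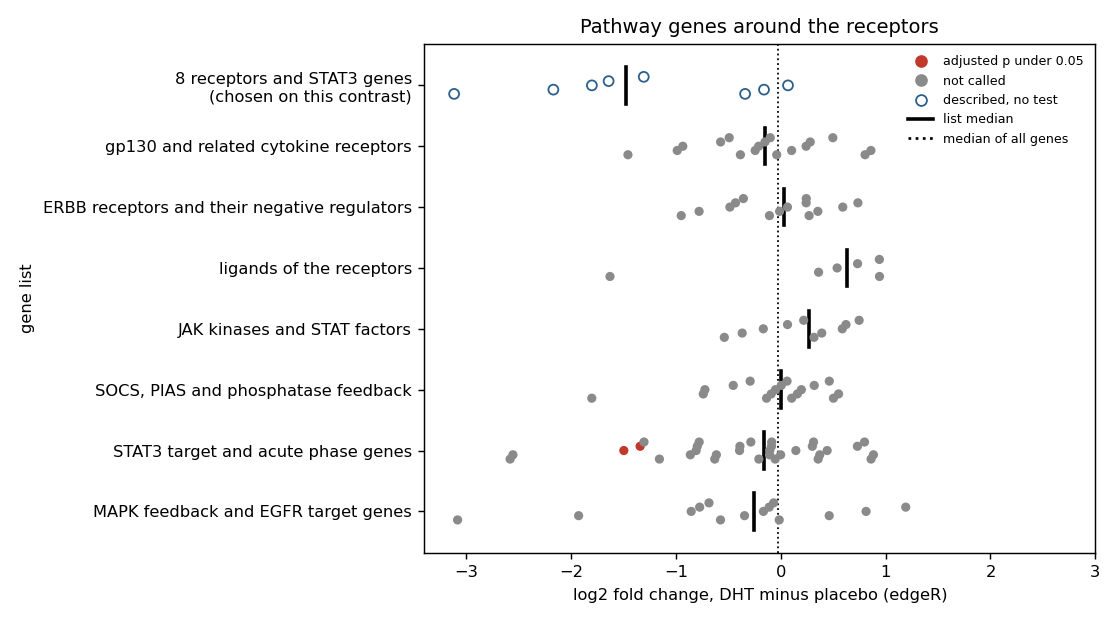
Log2 fold change (DHT minus placebo, horizontal axis) of each tested gene, with 1 row of dots per list, the list median as a black bar and the median of all genes as a dotted line. Filled red dots passed the test across all genes, namely Fgl1 and Cebpd, and the open circles in the top row are the 8 genes chosen on this contrast.

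Of 32 STAT3 target and acute phase genes, 2 were called lower, 0 higher and 30 were not called, beside 0.701% of all genes called lower, and the list median was −0.16. An unadjusted p under 0.05 was found for 10 of the 32, beside 2409 of all 15126 genes. DESeq2 called 4, Fgl1, Apcs, Myc and Cebpd, beside 1062 of all genes. Without overlap between the groups, 8 were lower and 1 was higher in DHT, beside 10.9% and 12.7% of all genes. Fgl1, a liver-secreted fibrinogen-like protein gene that interleukin-6 is known to induce (chromosome 8, 41191434 to 41215156), had 186, 169.5 and 244 CPM in DHT 1, 2 and 3, against 549, 509.5 and 635 CPM in placebo 1, 2 and 3. All DHT libraries lay well below all placebo libraries, and it fell 2.82-fold (log2 fold change −1.498 ± 0.27, edgeR adjusted p = 0.0364). Cebpd, a transcription factor gene of the acute phase response (chromosome 16, 15887286 to 15891031), had 3.29, 3.22 and 4.004 CPM in DHT 1, 2 and 3 and 8.72, 7.66 and 10.3 CPM in placebo 1, 2 and 3. It fell 2.54-fold (−1.34 ± 0.26, adjusted p = 0.0475), and 14.9% of its exon length overlaps Spidr on the opposite strand. Both calls were lost without DHT 1, DHT 2, DHT 3, placebo 1 or placebo 2 (adjusted p up to 0.205 for Fgl1 and 0.257 for Cebpd) and were kept without placebo 3. They were also lost when libraries were scaled by total size alone (adjusted p = 0.0506 and 0.0757).

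Myc, a growth-control gene, had 1.57, 2.77 and 8.19 CPM in DHT 1, 2 and 3, against 12.6, 32.8 and 29.4 CPM in placebo 1, 2 and 3. The groups did not overlap, and its difference was −2.58 ± 0.64 on the log2 scale (adjusted p = 0.105, with the replicate block 1.88e-09). With that block 4 genes of the list were called lower, Fgl1, Cebpd, Myc and Apcs, and 2 higher, Bcl3 and Pim1. The block called 5.28% of all genes lower and 5.44% higher. Without placebo 3 those called lower were Fgl1, Cebpd, Cebpb and Itih3, beside 437 of all genes, against 106 with all 6 libraries. Besides Fgl1, Cebpd and Myc, the genes lower in every DHT library than in any placebo library were Fgg, Hpx, Apcs, Hamp and Itih4, all of which encode secreted proteins made by the liver, and Bcl3 was the 1 gene higher in every DHT library. Hamp, which encodes the iron hormone hepcidin, had 729, 14.9 and 295 CPM in DHT 1, 2 and 3, against 2205, 1314 and 2589 CPM in placebo 1, 2 and 3 (adjusted p = 0.289). Its DHT libraries were spread widely, with DHT 2 far below the others. Apcs, serum amyloid P, had 73.1 ± 17.7 CPM in DHT and 181 ± 112 CPM in placebo (adjusted p = 0.209, with the block 0.00948). The log2 fold change was negative in 22 of the 32 genes and positive in 10. Hamp, Apcs, Leprot, Osmr, Ghr, Erbb3, Sos1, Tgfa and the ligands with few counts were chosen for mention after their values were seen.

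In the MAPK feedback and EGFR target list, edgeR called 0 of 14 tested genes in either direction, 5 had an unadjusted p under 0.05 and DESeq2 called 1, Ccnd1, with a list median of −0.26. In DHT 2 were lower without overlap, Spry2 and Ccnd1, and 1 was higher, Dusp4, beside 10.9% and 12.7% of all genes. Ccnd1, which encodes cyclin D1 of the cell cycle, had 28.0, 19.6 and 10.3 CPM in DHT 1, 2 and 3, against 103, 78.1 and 39.2 CPM in placebo 1, 2 and 3. The groups did not overlap, and the log2 fold change was −1.93 ± 0.47 (adjusted p = 0.0976, with the replicate block 2.63e-07 and without placebo 3 0.0134). Exons of Ccnd1 overlap those of Oraov1 on the opposite strand over 23.4% of their length, so its counts are uncertain without the strand setting. The phosphatase genes Dusp4 (1.19 ± 0.45, adjusted p = 0.249) and Dusp6 (0.81 ± 0.33, adjusted p = 0.282), which damp MAPK signalling, had positive log2 fold changes that did not pass.

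Of the 8 hepatocyte markers edgeR called 0, 2 had an unadjusted p under 0.05 and DESeq2 called 1, Cps1. Alb, Cps1 and Serpina1a were lower in every DHT library, beside 10.9% of all genes. With the replicate block Cps1 (adjusted p = 0.00834) and Tat (0.0247) were called lower, beside 5.28% of all genes. Without placebo 3 Tat was called lower (0.0497), beside 437 of all genes. Markers of other liver cells all had counts too, but Cftr, Cd8a, Ly6g, Elane and Mpo did not pass the low-count filter. The summed levels below include these untested genes. In stellate cell and fibroblast markers edgeR called 0 of 9, with 1 at an unadjusted p under 0.05 and 0 by DESeq2, and their summed level did not overlap, at 200 to 298 CPM in DHT and 320 to 563 CPM in placebo libraries. Dcn was the largest part of that sum, at a mean of 139 CPM in DHT and 252 CPM in placebo, and itself overlapped. Of the 9 only Des did not overlap, being lower in DHT, beside 10.9% of all genes. Among Kupffer cell, endothelial, B cell and neutrophil markers, 0 were called by edgeR or DESeq2 and 0 had an unadjusted p under 0.05. Kupffer cell and macrophage markers (8 tested) summed to 204 to 305 CPM in DHT and 190 to 283 CPM in placebo. Sinusoidal and vascular endothelial markers (8 tested) summed to 131 to 171 CPM in DHT and 132 to 288 CPM in placebo. Cholangiocyte markers summed to 50.3 to 101 CPM in DHT and 78.4 to 90.4 CPM in placebo, and of 5 tested edgeR called 0, 3 had an unadjusted p under 0.05 and DESeq2 called 2, Krt19 and Epcam. Spp1 made up most of that sum, at a mean of 60.6 CPM in DHT and 71.4 CPM in placebo, and overlapped. Krt7, Krt19 and Epcam, 3 of the 5, were lower in every DHT library, beside 10.9% of all genes. Markers of T and NK cells were low, 1.46 to 2.21 CPM in DHT and 3.55 to 6.83 CPM in placebo, and 1 of 6 tested, Gzma, was called lower (log2 fold change −2.62 ± 0.49, adjusted p = 0.0414), a call kept in 1 of the 6 fits that left out a library, that without placebo 3. B cell markers (4 tested) summed to 2.74 to 3.85 CPM in DHT and 1.73 to 5.93 CPM in placebo. Neutrophil markers (5 summed, 2 of them tested) came to 0.990 to 2.31 CPM in DHT and 0.631 to 2.53 CPM in placebo. The replicate block also called lower Col1a2 of the stellate list (adjusted p = 0.0166), Krt19 of the cholangiocyte list (0.00833) and, of the T and NK list, Cd3d (0.0178) and Klrb1c (0.0158) beside Gzma. Krt19 was called without placebo 3 too (0.0215). In the T and NK list 5 of 6 had an unadjusted p under 0.05, beside 2409 of all 15126 genes. DESeq2 called 3 of them, Nkg7, Gzma and Klrb1c, beside 1062 of all genes. The part of these cell types in the receptor levels was not tested.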

How the data were processed

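The authors deposited raw gene counts, 1 table per library, with gene coordinates and exon lengths. Per the submitters' processing notes, the tools were Trimmomatic 0.36, STAR 2.5.2b and featureCounts of Subread 1.5.2, on GRCm38. Whether counting used strand or multi-mapping reads is not given in the sources used here.

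The 6 tables were joined by gene, and groups follow the treatment label. Low counts were removed with filterByExpr and libraries scaled by TMM, with factors of 1.04 to 1.08 in DHT and 0.921 to 0.966 in placebo. DHT minus placebo was tested over 15126 genes with edgeR 4.0.16 in R 4.3.3 (quasi-likelihood, robust, Benjamini-Hochberg, called at an adjusted p under 0.05). CPM values are TMM-scaled; SE is the log2 fold change over the square root of F. The script was tested on simulated data. Intervals for 0 counts use 3 counts and cover counting error only. Counts of every library pair differed beyond sampling noise.

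The 8 genes, and the 7 pathway and 8 cell type lists, were chosen with earlier results of these data known. From each pathway list the 3 genes with the smallest p are named, and any called marker. Alternatives were DESeq2 1.42.0, other scalings and filters, leaving out each library and the replicate number as a block. Same-numbered libraries deviated together from their group means (correlation 0.235, 0.137 and 0.594 for numbers 1, 2 and 3), although DHT 1 correlated more with placebo 2 (0.438) and DHT 2 more with placebo 1 (0.278), and the titles alone give the numbers. Added after seeing the data was the removal of both libraries numbered 3. Start windows are RefSeq's on GRCm38.p6.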

Additional observations from a re-analysis of the deposited data

How the results depend on the processing

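Over all genes, 250 were called (144 higher, 106 lower in DHT), 2409 having an unadjusted p under 0.05. DESeq2 called 1062 (498 higher, 564 lower), no low-count filter 521 (290 and 231), the replicate block 1621 (823 and 798, 242 of the 250 among them in the same direction) and the removal of both libraries numbered 3, chosen after seeing the data, 448 (266 and 182). Leaving out a library in turn gave 84 to 862 calls, 44 to 425 higher and 32 to 437 lower, with the highest counts without placebo 3. Scaling by library size alone shifted the median log2 difference over all genes to 0.1655, against −0.02 with TMM, and gave 207 genes called higher and 89 lower. Over the 6 fits that each left out a library, the log2 fold change ranged from −3.25 to −2.91 in Lepr, −2.56 to −1.92 in Lifr, −2.14 to −1.39 in Prlr, −1.68 to −1.08 in Egfr, −2.12 to −1.32 in Il6ra, −0.52 to 0.17 in Il6st, −0.28 to 0.47 in Stat3 and −1.44 to 0.017 in Socs3. In those first 5 genes the value was negative in all 13 alternatives.

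Calls in the lists changed as follows, in genes called lower unless stated. DESeq2 called 1 in the cytokine receptor, ligand, SOCS and MAPK lists and 4 in the STAT3 target list. Without the low-count filter 1 was called in the cytokine receptor, SOCS and MAPK lists. The replicate block gave 2 cytokine receptors, 1 ERBB gene lower and 1 higher, 1 ligand, 1 SOCS gene, 1 MAPK gene and, among STAT3 targets, 4 lower and 2 higher. Removal of both libraries numbered 3 gave 1 cytokine receptor, 3 STAT3 targets (Myc gained, adjusted p = 0.0268) and, among MAPK genes, 1 lower and 1 higher. With library size alone, 0 STAT3 targets were called. Leaving out a library in turn gave 0 to 4 STAT3 targets, 0 to 2 cytokine receptors, and 0 to 1 in the ERBB, ligand and MAPK lists. The block changed no other call in these pathway lists. The causes were not tested. Among the 8 receptor and signalling genes depth limits Lepr most, whose lowest library held 58 counts. Of the genes named for a small p or as a called marker, Gzma had as few as 7, Socs1 11, Clcf1 and Dusp4 14 and Hbegf 23. Other genes mentioned were as scarce. Klrb1c and Cd3d stood at 0.0649 and 0.114 CPM in DHT 1, and Stat4 at 0.179 CPM in DHT 3.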
